A study of Arabidopsis thaliana with 6 samples.

Results

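Chlorophyll biosynthesis was followed here through 6 genes of the pathway, of 19 Arabidopsis thaliana loci that were looked for. A locus was kept when the platform annotation gave it a probe set, meaning the short probes whose signals are combined into a single value, that names no other gene. The 6 were GSA1 (AT5G63570), HEMB1 (AT1G69740), HEME1 (AT3G14930), HEME2 (AT2G40490), CHLM (AT4G25080) and PORB (AT4G27440), each with 1 probe set, out of 22746 tested and 13513 that name 1 gene. The other 13 loci, among them GUN5, the large subunit of magnesium chelatase, HEMA1, which opens the pathway, and CH1, which makes chlorophyll b, have no probe set of their own in that annotation and were not analysed here.

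The samples were whole rosettes in 3 groups of 2 arrays, each array a biological replicate by its title. GA rosettes had been sprayed on alternate days with 1 mL of 50 µM GA3, a gibberellin. PBZ rosettes had been watered on day 14 with 10 mL of paclobutrazol at 50 mg/L, or 0.5 mg per pot; paclobutrazol blocks gibberellin synthesis. Control rosettes had no treatment, and the labels describe no mock spray or watering for them. All 3 groups were Col-0 plants that carry 35S:HF-RPL18B, a tagged ribosomal protein gene under the broadly active 35S promoter, and grew in soil with 16 h of light. How many plants or independent lines went into an array is not given in the labels, and the harvest is given as day 27 in the titles and day 25 in another label. The molecule field says total RNA, whereas the extraction text covers both total RNA and RNA pulled down with ribosomes.

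Chlorophyll is made in the plastid from glutamate. Glutamate is turned into 5-aminolevulinic acid, which is built up into porphyrin rings; magnesium is inserted to enter the chlorophyll branch, whereas iron leads to heme. Late enzymes then reduce the ring in the light and attach a phytol tail. Paclobutrazol-treated plants are commonly described as darker green, and gibberellin-treated ones as paler.

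The leaf tissue was visible in the arrays. The 3 measured genes of 8 green leaf markers (RCA, PRK and SBPASE) summed to an intensity of 8890 to 8936 in GA, 8615 to 9195 in PBZ and 8085 to 9314 in control rosettes. The 1 measured gene of 7 root markers, EXPA7, was between 3.4 and 6.2 in GA, 5.7 and 12.4 in PBZ and 2.5 and 4.9 in control arrays. FMA, the 1 measured gene of 5 guard cell markers, was between 18.2 and 24.6 in GA, 16.4 and 18.1 in PBZ and 14.2 and 27.5 in control arrays. None of the 8 flower markers had a probe set of its own in the annotation used, so the presence of floral tissue was not tested. Array medians ran from 32.4 to 33.9. Arrays of the same group correlated at 0.981 to 0.988 on the log2 scale, and those of different groups at 0.967 to 0.986.

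None of the 6 chlorophyll genes passed the test in any comparison. The test was limma on log2 of intensity plus a pseudocount of 10, with p-values adjusted over all probe sets and a threshold of 0.05; fold changes below are on that scale. From the lowest to the highest of all 6 arrays, the intensity spanned 1.13-fold for HEMB1, 1.17-fold for CHLM, 1.20-fold for GSA1, 1.21-fold for HEME2, 1.47-fold for HEME1 and 1.53-fold for PORB. Between the 2 arrays of a single group the ratio ran from 1.01 to 1.32. In bulk rosettes, fewer cells of a type and less RNA per cell cannot be told apart. Every intensity of the 6 genes was above 100, so the pseudocount weighs little on their fold changes. Their p-values did move with it. For HEME2 in PBZ against control, the unadjusted limma p was 0.163 with a pseudocount of 1, 0.108 with 10 and 0.0355 with 32.

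**Figure D1:**
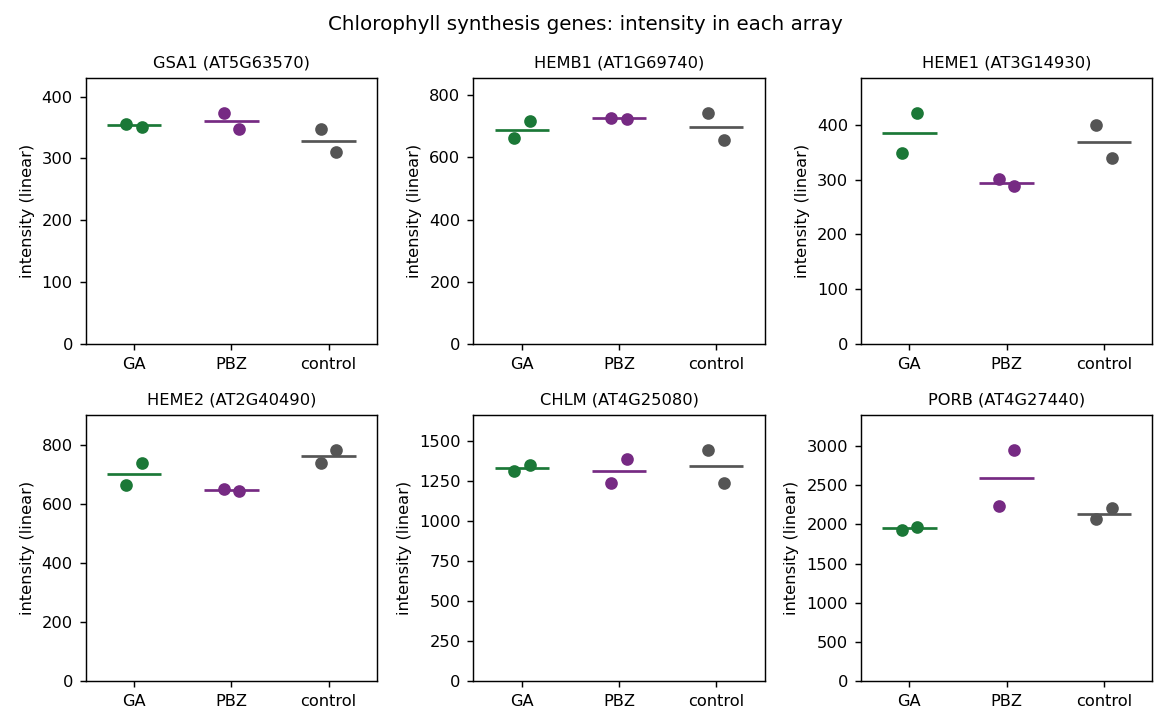
Linear intensity (vertical axis, from 0) of the 6 chlorophyll synthesis genes in pathway order. Points are single arrays and bars are group means for GA, PBZ and control rosettes (n = 2 each). The PBZ points of HEME1 and HEME2 lie below all other points of those genes, and 1 PBZ point of PORB, at 2954, stands above the rest.

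GSA1 encodes glutamate-1-semialdehyde aminomutase, the enzyme that forms 5-aminolevulinic acid. Its intensity was 356.2 and 350.5 in the GA arrays, 373.3 and 347.5 in the PBZ arrays, and 347.4 and 310.6 in the control arrays. The control arrays were the lowest, though by only 0.1 between the nearest PBZ and control values, and the GA values lay inside the PBZ range. The log2 fold change was 0.13 for PBZ against control (SE 0.12, limma adjusted p = 0.712) and 0.10 for GA against control (SE 0.12, adjusted p = 0.905). Both values moved with the control arrays: they were 0.21 and 0.18 without control replicate 1, and 0.0507 and 0.0238 without control replicate 2. The first was 0.0788 without PBZ replicate 1.

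HEMB1 encodes 5-aminolevulinic acid dehydratase, which makes the pyrrole unit porphobilinogen. It measured 662.3 and 715.9 in GA, 727.7 and 723.3 in PBZ, and 742.0 and 654.2 in control rosettes. The control arrays enclosed all GA and PBZ values. For PBZ against control, GA against control and GA against PBZ in turn, HEMB1 had limma adjusted p-values of 0.897, 0.996 and 0.823. Its log2 fold changes were 0.0575, -0.0167 and -0.0743 in that order (SE 0.13 each). The last was -0.0189 without GA replicate 1 and -0.13 without GA replicate 2.

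HEME1 and HEME2 both encode uroporphyrinogen III decarboxylase, a step that chlorophyll and heme synthesis share. HEME1 measured 347.9 and 421.2 in GA arrays, 301.0 and 287.5 in PBZ arrays, and 398.7 and 339.5 in control arrays. Its PBZ arrays were the lowest of the 6, and GA and control arrays overlapped. The mean was 384.6 ± 51.8 in GA, 294.2 ± 9.55 in PBZ and 369.1 ± 41.9 in control rosettes (SD, n = 2). HEME1 was 1.24-fold lower in PBZ than in control (log2 fold change -0.31, SE 0.15, limma adjusted p = 0.441; 95% confidence interval -0.68 to 0.0584). For GA against PBZ the log2 fold change was 0.37 (SE 0.15, limma adjusted p = 0.28), with an interval of -0.0027 to 0.74 and an unadjusted p of 0.0512. These differences did not pass the threshold over all probe sets. The first was -0.20 without control replicate 1 and -0.43 without control replicate 2. The second ran up to 0.50 when 1 array was left out, and was 0.23 without GA replicate 2.

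HEME2 gave 666.9 and 741.1 in GA, 650.5 and 645.8 in PBZ, and 741.5 and 784.9 in control rosettes. The PBZ arrays were again the lowest and close together, the control arrays the highest, and the GA arrays lay between, the nearest GA and control values being 0.4 apart. The means were 704.0 ± 52.5 in GA, 648.1 ± 3.32 in PBZ and 763.2 ± 30.7 in control (SD, n = 2). HEME2 had a log2 fold change of -0.23 for PBZ against control (SE 0.12, limma adjusted p = 0.483) and of -0.12 for GA against control (SE 0.12, adjusted p = 0.886). Relative to PBZ, GA rosettes had a log2 fold change of 0.12 in HEME2 (SE 0.12, limma adjusted p = 0.689). Without GA replicate 1 the GA values of HEME2 were -0.0413 against control and 0.19 against PBZ, and without GA replicate 2 they were -0.19 and 0.0405. The value against control was -0.0758 without control replicate 2 and -0.16 without control replicate 1. Both decarboxylase genes thus had their lowest group mean in PBZ, without passing in either.

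CHLM encodes the methyltransferase that acts on magnesium protoporphyrin IX, an early step after magnesium insertion. It measured 1312 and 1350 in GA, 1235 and 1389 in PBZ, and 1444 and 1237 in control arrays. The groups overlapped fully, with means of 1331 ± 27.2 in GA, 1312 ± 110 in PBZ and 1340 ± 146 in control (SD, n = 2). Its log2 fold changes were -0.0288 for PBZ against control, -0.0058 for GA against control and 0.0230 for GA against PBZ (SE 0.14 each; limma adjusted p = 0.955, 0.996 and 0.959).

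PORB encodes a protochlorophyllide oxidoreductase, which uses light to reduce the ring near the end of the pathway. It measured 1927 and 1970 in GA arrays, 2235 and 2954 in PBZ arrays, and 2064 and 2214 in control arrays. The GA arrays were the lowest and the PBZ arrays the highest, with no overlap between the 3 groups, but the PBZ arrays lay 1.32-fold apart and the lower of them was close to the upper control array. Group means were 1949 ± 30.3 in GA, 2594 ± 509 in PBZ and 2139 ± 106 in control (SD, n = 2). PORB was 1.20-fold higher in PBZ than in control (log2 fold change 0.26, SE 0.16, limma adjusted p = 0.549). This log2 fold change was 0.0636 without PBZ replicate 2 and 0.46 without PBZ replicate 1. GA against control had a log2 fold change of -0.13 (SE 0.16, limma adjusted p = 0.907). That value was -0.0829 without control replicate 2 and -0.18 without control replicate 1. PORB was 1.32-fold lower in GA than in PBZ. Its log2 fold change was -0.40 with an SE of 0.16 and a 95% confidence interval of -0.80 to 0.0028 (limma adjusted p = 0.28, unadjusted p = 0.0512). It was -0.20 without PBZ replicate 2 and -0.60 without PBZ replicate 1.

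Read by comparison, PBZ against control had 0 of the 6 genes past an adjusted p of 0.05. In the main fit 0 had an unadjusted limma p under 0.05, which changed in other fits given below. Over all probe sets, 0.514% passed and 13.7% had an unadjusted p under 0.05. PORB and GSA1 had both PBZ arrays above both control arrays, and HEME1 and HEME2 had both below. Over all probe sets 23.2% were higher and 18.5% lower without overlap, so separation of this kind was common with 2 arrays a group. With 6 genes, a share of 2 of 6 each way is too coarse to set against that background. The median log2 fold change of the 6 genes was 0.0144, against 0.0252 over all probe sets. It was -0.0267 over probe sets at least as bright as the dimmest of the 6.

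GA against control likewise had 0 of 6 genes past either threshold. Over all probe sets, 0% passed (limma) and 8.49% had an unadjusted p under 0.05. Arrays did not overlap for GSA1, with GA higher, and for PORB and HEME2, with GA lower. The share over all probe sets was 16.8% higher and 22.2% lower. The log2 fold changes of the 6 genes ran from -0.13 to 0.10. Their median was -0.0113, against -0.0213 over all probe sets and -0.0350 over those at least as bright. The spread of the 6 genes was the narrowest of the 3 comparisons, as it was over all probe sets. Over all of them the median absolute log2 fold change was 0.138 here. It was 0.171 in PBZ against control and 0.193 in GA against PBZ.

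GA against PBZ had 0 of 6 genes past either threshold in the main fit. Of all probe sets, 2.97% passed (limma) and 18% had an unadjusted p under 0.05. HEME1 and HEME2 were higher in both GA arrays than in both PBZ arrays, and PORB and HEMB1 were lower. Over all probe sets, 19.1% were higher and 28.3% lower without overlap. The median log2 fold change of the 6 genes was -0.0019, against -0.0468 over all probe sets and -0.0140 over those at least as bright. The 3 comparisons share arrays pairwise, so their values are not independent of each other.

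**Figure D2:**
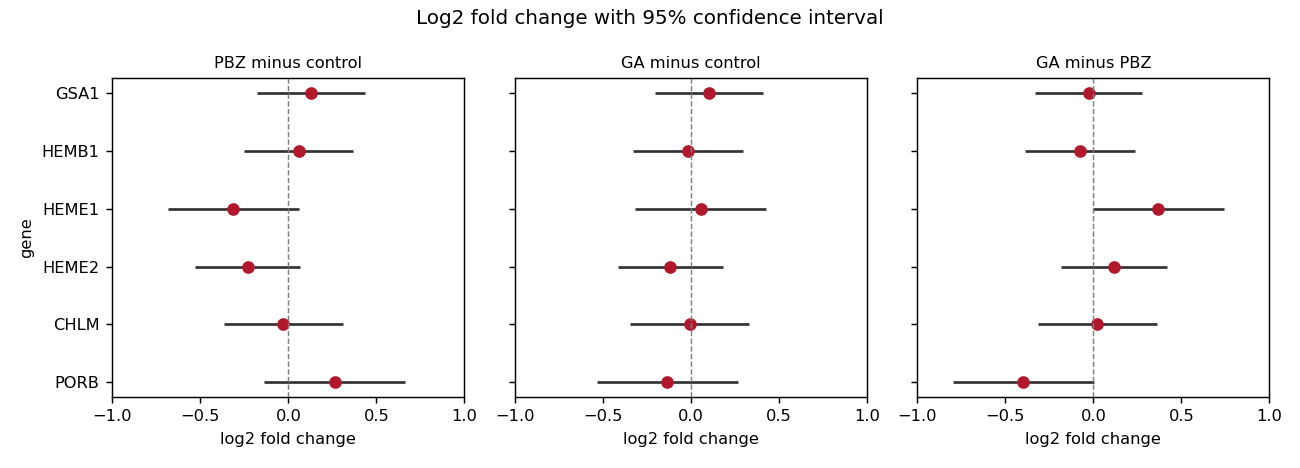
Log2 fold change (horizontal axis, on the scale of log2 of intensity plus 10) of the 6 genes in the 3 comparisons. Points are estimates and lines 95% confidence intervals from limma in the main fit. Every interval includes 0, and those of PORB and HEME1 in GA minus PBZ end closest to it.

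The confidence intervals give a range for the size of each change, at 95% for each interval alone, and not a firm bound. Over the 6 genes and 3 comparisons, the 95% confidence intervals of the log2 fold change, each taken for 1 gene and 1 comparison, lay between -0.80 and 0.74. In fold terms, the lowest bound was 0.575 and the highest 1.67. A log2 change of 1 in either direction was therefore outside each of the 18 intervals. For CHLM, the intervals were -0.37 to 0.31 for PBZ against control and -0.34 to 0.33 for GA against control. For HEMB1 they were -0.25 to 0.37 and -0.33 to 0.30, for GSA1 -0.18 to 0.43 and -0.20 to 0.41. The limma F test over the 3 groups gave adjusted p-values from 0.415 for HEME1 to 0.993 for CHLM.

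The spread between replicates lay below the median of bright probe sets for HEME2, GSA1 and HEMB1. It lay above that median for CHLM, HEME1 and PORB. The residual SD of log2 values ran from 0.0697 for HEME2 to 0.17 for PORB, against a median of 0.11 over the 1968 probe sets at least as bright as GSA1, the dimmest of the 6. Among those 1968, 18.95% had a larger absolute log2 fold change than HEME1 (0.31) in PBZ against control. In GA against control 34.7% exceeded PORB (0.13), and in GA against PBZ 15.6% exceeded PORB (0.40). In PBZ against control, no probe set of the 1968 passed with an absolute log2 fold change under 0.98. Smaller changes were thus not called there.

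**Figure D3:**
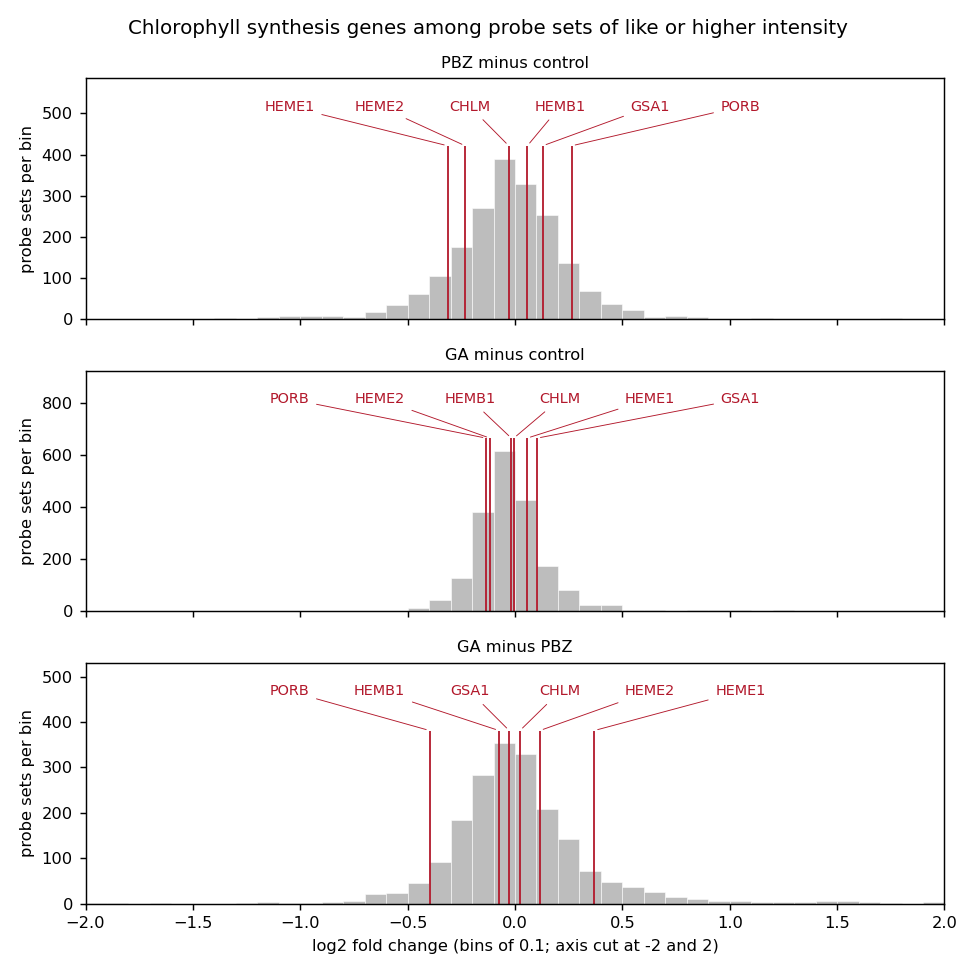
Number of probe sets per bin of log2 fold change (grey bars) among the 1968 probe sets at least as bright as GSA1, with the 6 chlorophyll genes as red lines, for the 3 comparisons. The axis ends at -2 and 2, beyond which lie 9, 1 and 12 probe sets from the top panel down; all 6 genes lie between -0.40 and 0.37.

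Across the 6 arrays the genes did not share 1 profile. Pearson correlations of log2 values were 0.68 between HEME1 and HEME2, -0.76 between HEME1 and PORB, -0.75 between HEME2 and GSA1, 0.57 between GSA1 and HEMB1 and 0.57 between CHLM and HEMB1. They ran from -0.43 to 0.39 in the other 10 pairs. These are descriptions over 6 arrays that hold 3 treatments, scaled to a common mean. Among 740 other probe sets with a gene symbol of their own and a mean intensity of at least 50, the profiles most like that of HEME1 belonged to ty2 (AT1G43560, r = 0.97), TSC10A (AT3G06060, r = 0.95) and SKU5 (AT4G12420, r = 0.93). The closest, ty2, averaged 1324 ± 79.5 in GA, 1114 ± 15.1 in PBZ and 1269 ± 30.9 in control (SD, n = 2). SKU5 averaged 668.0 ± 88.4 in GA, 358.1 ± 29.3 in PBZ and 541.3 ± 121 in control (SD, n = 2). Those most like PORB were bHLH104 (AT4G14410, r = 0.99), BRH1 (AT3G61460, r = 0.97) and APG8H (AT3G15580, r = 0.97). The closest, bHLH104, averaged 197.3 ± 8.63 in GA, 268 ± 44.8 in PBZ and 217.5 ± 6.79 in control (SD, n = 2). BRH1 averaged 432.4 ± 30.5 in GA, 705.1 ± 152 in PBZ and 492.1 ± 56.7 in control (SD, n = 2). In all, 11 of the 740 had r above 0.9 with HEME1 and 17 with PORB.

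Other genes of tetrapyrrole metabolism gave the same count of 0. Over all probe sets, 0.514% passed in PBZ against control, 0% in GA against control and 2.97% in GA against PBZ. At such shares a count of 0 says little about a short list, here and in the lists below. Of 13 further synthesis genes 6 were measured (HEMA2, HEMA3, hemb2, hemf2, CHLI2 and AT1G74470), and 0 passed in either direction in the 3 comparisons (limma adjusted p from 0.703 to 0.996; 0 at an unadjusted p under 0.05). Their median log2 fold change was -0.0662 for PBZ against control, -0.0298 for GA against control and 0.0010 for GA against PBZ. CHLI2, a second gene for the smallest magnesium chelatase subunit, measured 209.0 and 214.7 in GA, 224.3 and 207.0 in PBZ, and 250.1 and 204.1 in control arrays. Its control arrays lay farther apart than its group means. AT1G74470, the geranylgeranyl reductase that prepares the phytol tail, measured 1689 and 1706 in GA, 1796 and 1769 in PBZ, and 2073 and 1714 in control arrays. Its GA values were the lowest and close together, with a log2 fold change of -0.15 against control (SE 0.14, limma adjusted p = 0.859). That value was -0.0139 without control replicate 1 and -0.29 without control replicate 2. The 2 isoform genes HEMA3 and hemf2 were dim, with 0.7 to 7.2 and 1.4 to 13.5 over all arrays. The dim probe set of hemb2, named for the enzyme that HEMB1 encodes, read 14.2 and 18.4 in GA, 7.8 and 18.5 in PBZ, and 13.9 and 17.6 in control. HEMA2 lay between 39.0 and 46.5 in all arrays. In the annotation used, none of the 7 heme and phytochromobilin branch genes, 13 regulators or 8 plastid isoprenoid genes listed had its own probe set. That annotation names no gene for 8730 of the 22746 probe sets, so whether the array carries probes for them is not known here.

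Of 11 listed genes of chlorophyll breakdown, NOL and AT1G44000 were measured, and 0 passed. NOL, a relative of NYC1 that reduces chlorophyll b, measured 180.7 and 222.1 in GA, 221.3 and 240.8 in PBZ, and 197.8 and 168.6 in control arrays. Its log2 fold change for PBZ against control was 0.32 (SE 0.16, limma adjusted p = 0.44). That of NOL was 0.21 without control replicate 2 and 0.43 without control replicate 1. AT1G44000 measured 327.6 and 370.2 in GA, 291.7 and 265.4 in PBZ, and 390.2 and 437.8 in control arrays. The 3 groups of AT1G44000 did not overlap, with PBZ lowest and control highest. Over all probe sets, 18.5% were lower in PBZ than in control without overlap, and 22.2% were lower in GA than in control. For GA against PBZ, 19.1% were higher. The log2 fold change of AT1G44000 for PBZ against control was -0.55 (SE 0.14, unadjusted p = 0.0066, limma adjusted p = 0.176). It was larger in size than that of any of the 6 synthesis genes, and it did not pass.

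The light-harvesting proteins bind most of the chlorophyll of the leaf. Of 21 listed genes, the 3 measured were the isoforms of the photosystem II antenna protein CP29, and 0 passed in any comparison. LHCB4.1 had means of 4885 ± 168 in GA, 5078 ± 14.4 in PBZ and 4918 ± 463 in control, and LHCB4.2 had 2803 ± 134 in GA, 3219 ± 16.8 in PBZ and 3230 ± 286 in control (SD, n = 2). LHCB4.3 measured 471.3 and 506.8 in GA, 774.3 and 742.7 in PBZ, and 565.8 and 508.6 in control arrays. Both PBZ arrays stood above all others, and the GA arrays were below the control arrays by a small margin. Over all probe sets, 23.2% were higher in PBZ than in control without overlap. In the same way, 28.3% were lower in GA than in PBZ and 22.2% lower in GA than in control. The log2 fold change of LHCB4.3 was -0.62 for GA against PBZ (SE 0.13, limma adjusted p = 0.0626). For PBZ against control it was 0.49 (SE 0.13, limma adjusted p = 0.186). In GA against PBZ it passed in 3 of 14 alternative fits, with a pseudocount of 32 (adjusted p = 0.0210), without the 40% dimmest probe sets (0.0176) and with a variance prior that follows intensity (0.0130), within a range of 0.0130 to 0.297.

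**Figure D4:**
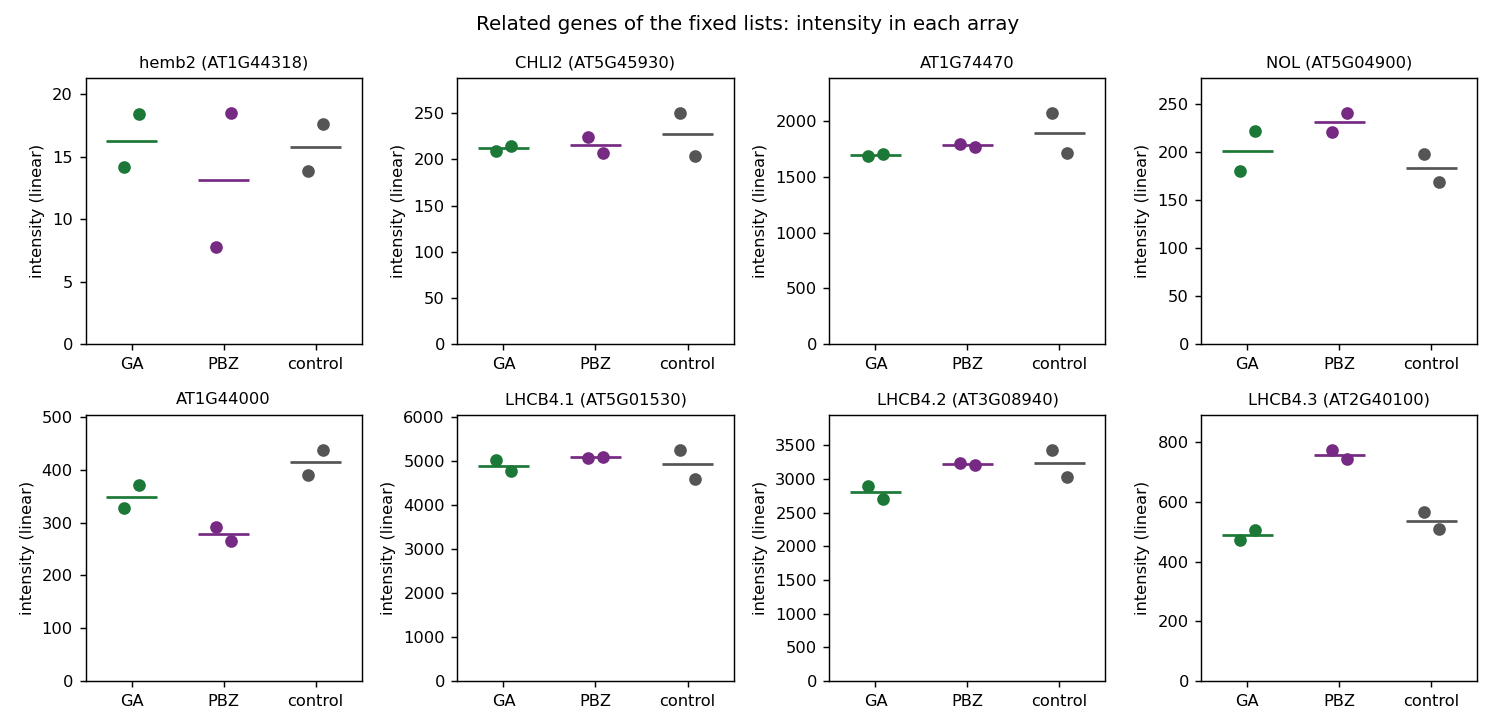
Linear intensity (vertical axis, from 0) of 8 related genes in single arrays (points) with group means (bars) for GA, PBZ and control rosettes, n = 2 each. In LHCB4.3 the PBZ arrays, at 774.3 and 742.7, lie above the other 4, and in AT1G44000 they lie below.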

How the data were processed

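The authors deposited 1 table of linear intensities for 6 arrays. After trimming 2% at each end, every array had a mean of 100.01, so the deposited intensities had been scaled. The submitters' processing notes name RMA and affy without versions; RMA gives log2 values, so the method behind this linear table is not known here. The table was log2-transformed with a pseudocount of 10, and 64 control probe sets of 22810 were left out. Genes were named by Entrez number through the platform annotation and the RefSeq gene table; no coordinates are given because the array's build is not named.

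Limma 3.58.1 in R 4.3.3 fitted a mean per group to all 6 arrays (3 residual and 3.07 prior degrees of freedom), with two-sided moderated tests and Benjamini-Hochberg adjustment over 22746 probe sets. The pipeline was run on simulated data with independent noise and changes larger than any seen in the 6 genes. That run does not show how well changes of their size are found. No scan date or slide is given, so no batch was tested. P-values measure the spread between arrays titled as biological replicates, and with 2 arrays a group precision is low.

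The 6 genes and the lists were chosen with earlier results of these data known. Named are the 6 genes, the list genes past the threshold or the 3 with the smallest F-test p per list, and the 3 probe sets most like HEME1, which had the smallest F-test p, and PORB, the brightest. HEMA2, HEMA3, hemf2 and the tissue markers lie outside this rule and complete their lists. Alternatives were 2 other pseudocounts, quantile normalization, median centring, a filter on dim probe sets, the replicate number as a block, fits of 2 groups, an intensity trend and leaving out each array.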

Additional observations from a re-analysis of the deposited data

How the results depend on the processing

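None of the 6 chlorophyll genes passed in any comparison under any of the 14 alternatives (252 values, lowest adjusted p 0.133); 238 of these values kept their sign. The sign turned for values near 0. In GA against control, CHLM had 0.025 after quantile normalization and 0.00088 after median centring, and in GA against PBZ, GSA1 had 0.015 after median centring. Leaving out 1 array at a time, the log2 fold change against control in PBZ ran from -0.14 to 0.082 for CHLM and -0.032 to 0.15 for HEMB1, and in GA from -0.12 to 0.10 for CHLM, -0.11 to 0.073 for HEMB1 and -0.079 to 0.19 for HEME1. In GA against PBZ it ran from -0.062 to 0.11 for CHLM and -0.077 to 0.023 for GSA1.

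Of the related genes, 316 of 333 values kept their sign. In PBZ against control, LHCB4.2 had 0.067 after quantile normalization, and without 1 array it ran from -0.092 to 0.088. In GA against control LHCB4.1 had 0.020 after quantile normalization, and in GA against PBZ CHLI2 had 0.018 after median centring. Without 1 array, values in PBZ against control ran from -0.22 to 0.056 for AT1G74470, -0.53 to 0.15 for hemb2, -0.21 to 0.075 for CHLI2 and -0.047 to 0.15 for LHCB4.1. In GA against control they ran from -0.086 to 0.15 for hemb2, -0.23 to 0.051 for CHLI2, -0.015 to 0.27 for NOL and -0.10 to 0.089 for LHCB4.1. In GA against PBZ they ran from -0.12 to 0.56 for hemb2 and -0.079 to 0.032 for CHLI2.

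Over all probe sets, 117 passed in PBZ against control, 0 in GA against control and 675 in GA against PBZ, and these counts depended on the fit. For PBZ against control the count was 0 with a pseudocount of 1, 248 with 32, 548 without the dimmest 40%, 4 when only these 2 groups were fitted, 333 with an intensity trend and 0 to 4 without 1 array. For GA against control it was 193 without the dimmest 40% and 51 with the trend. For GA against PBZ it was 94 with a pseudocount of 1, 1349 without the dimmest 40%, 284 when only these 2 groups were fitted, 1040 with the trend and 0 to 284 without 1 array. With the replicate number as a block, 47, 1 and 391 probe sets passed in the 3 comparisons in that order. The within-group differences of same-numbered arrays correlated at -0.00077 to 0.031 between groups over all probe sets. Whether arrays of the same number share a batch was not tested. The cause of these shifts was not tested.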
